A study of Mus musculus with 2 samples.

Results

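The genes of DNA replication were described in the telencephalon and in the whole body of E12.5 fetuses of untreated wild-type ICR mice, with 1 RNA-seq library for each. ICR is an outbred stock, and the telencephalon is the front of the embryonic brain, where neural progenitors divide. The number of fetuses behind each library is not given, nor whether the whole body kept its head, with which it would hold a telencephalon too. The members were 39 gene symbols chosen by name for their roles in origin licensing, helicase activation, DNA synthesis and nucleotide supply, and 37 of them were found among the 43437 genes of the table. Cdt1 and Gins2 were not analysed here. Levels are FPKM, fragments per kilobase of transcript scaled to library size, which allow genes to be compared per length within a library.

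Replication starts at origins, where the origin recognition complex with Cdc6 and Cdt1 loads the ring-shaped MCM helicase in G1, a step called licensing. At the start of S phase Cdc45 and the GINS complex join the ring and Mcm10 helps to activate it, after which the polymerases copy the strands with the sliding clamp PCNA. E2F factors transcribe many of these genes as cells enter S phase, so in a dissected tissue their RNA follows both the share of cycling cells and the level per cell. In bulk RNA fewer cycling cells and less RNA per cell cannot be told apart.

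Most replication genes were somewhat lower in telencephalon than in whole body, and nearly all lay within 2-fold. All 37 reached 1 FPKM in at least 1 library, the limit for a gene to count as measured, and 35 had 5 FPKM or more in both. Differences are log2 ratios of telencephalon over whole body after adding 1 FPKM to each value, and counts of genes past 2-fold or 1.5-fold use these log2 ratios. Percentages of the whole-body level and ratios between genes are plain ratios of FPKM. The log2 ratio was below 0 for 28 of the 37 members, against 58.2% of the 14987 measured genes, and above 0 for 9, against 41.8%. Only Orc1 was at least 2-fold lower (1 of 37, against 21.2% of measured genes), and none was at least 2-fold higher (9.39% of measured genes). The other 36 lay within 2-fold, against 69.5% of measured genes. At 1.5-fold 5 were lower and none higher, against 31.6% and 17% of measured genes. The median log2 ratio of the members was -0.33, with an interquartile range from -0.44 to -0.07, and that of all measured genes was -0.16, below which lay 23 of the 37. Rescaling to TPM or centring moves the median of all genes by 0.14 and 0.16 and brings the members' median to -0.20 and -0.18. Among the 10200 measured genes whose summed FPKM lay in the range of the members' own, the median was -0.08. Together the members stood at 1255 FPKM in telencephalon against 1493 in whole body, so the sum in telencephalon was 84% of that in whole body. As a share of all FPKM of the library they were closer, at 0.28% in telencephalon against 0.297% in whole body.

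With 1 library for each tissue no difference has a replicate check and no p-value is given. The FPKM steps of genes with a single isoform corresponded to about 22800000 fragments in the telencephalon library and 29400000 in the whole-body library. Members rested on 116 to 6125 estimated fragments in telencephalon and 288 to 8613 in whole body. For the 34 members whose isoforms all have a known length, the fragments were also compared directly, as the ratio of telencephalon over whole body scaled by depth (the fragment ratio) with an exact 95% Clopper-Pearson interval. This interval lay below 1 for 26 members, above 1 for Rfc3 and E2f1, and held 1 for Mcm7, Cdc45, Gins1, Rfc4, Rfc5 and Rrm2. The intervals were not counted over all genes, so no background share stands beside these numbers and no result about the members is drawn from them. By the fragment ratio, 59.1% of 14423 measured genes had a log2 ratio below 0, with a median of -0.19. Mcm2, Gmnn, Rfc2, Prim2 and Rrm1 are among the 26, yet their log2 ratios were above 0 in TPM and after centring. The fragment ratio weights a gene's long isoforms more than FPKM does, so the ratios can differ. The intervals cover counting error within the 2 libraries only, and not variation between fetuses or dissections.

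**Figure D1:**
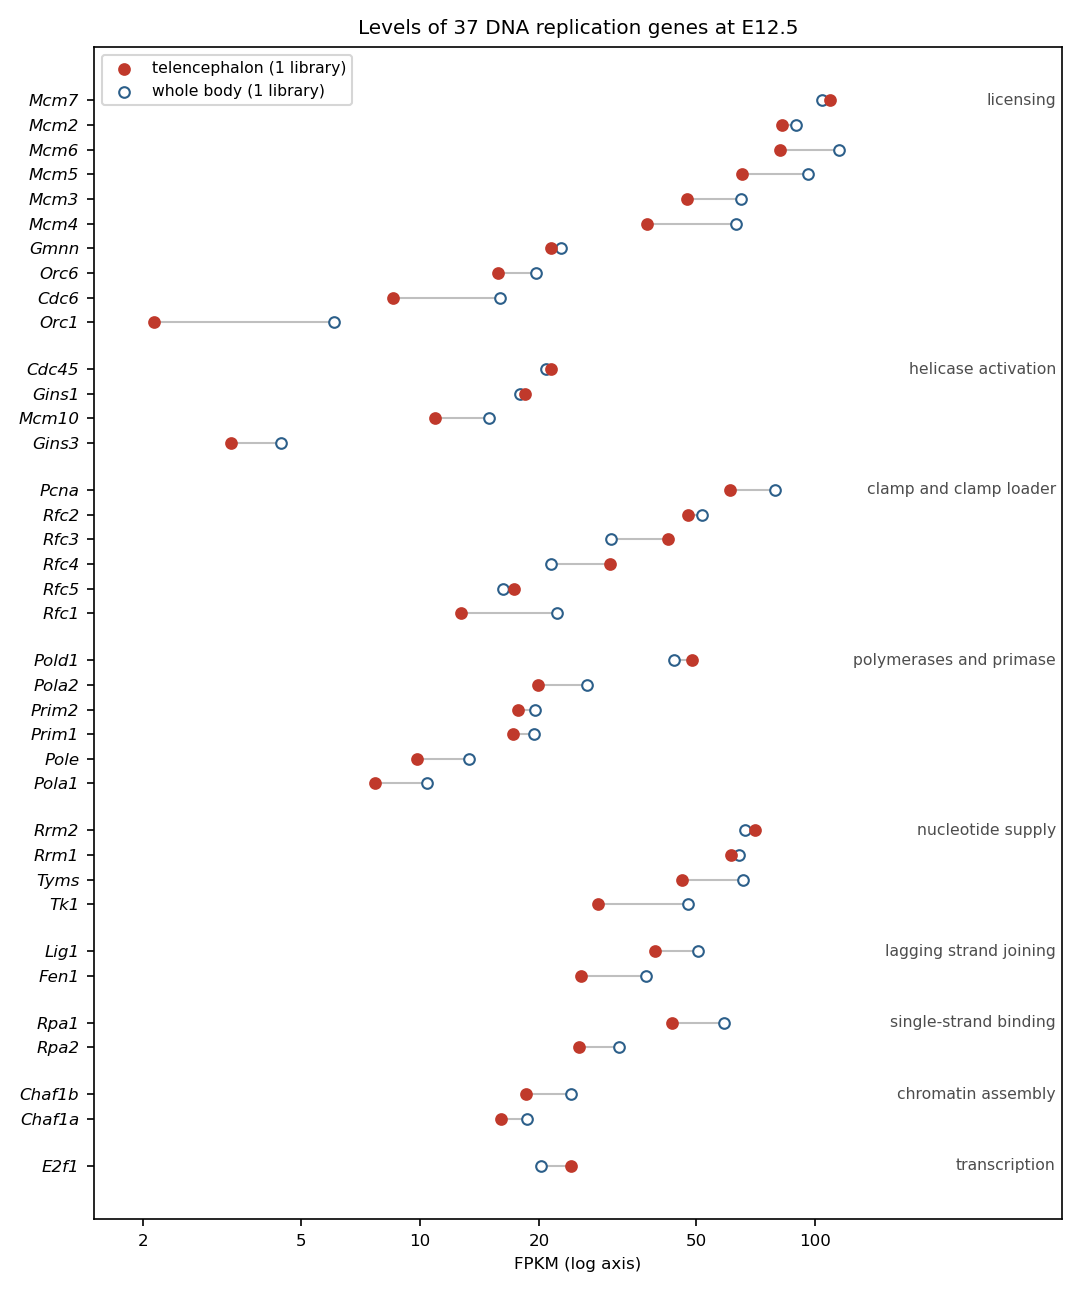
FPKM of each member (log axis) in telencephalon (filled circles) and whole body (open circles), grouped by role and ordered within a role by the telencephalon level. The filled circle lies left of the open one for 28 of the 37 genes, with Orc1 the widest apart at 2.13 FPKM in telencephalon against 6.07 in whole body.

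The markers of both labelled tissues were present. Of the telencephalon markers, Dlx2 was at 212 FPKM in telencephalon against 5.4 in whole body and Tbr1 at 172 and 4.59, while Emx2, the one reported here with a log2 ratio under 1, was at 4.75 FPKM in telencephalon against 1.93 in whole body (log2 ratio 0.97). The others reported, Emx1, Lhx2, Eomes, Dlx1, Lhx6 and Gsx2, were at least 2-fold higher, with log2 ratios from 2.11 (Lhx2) to 4.45 (Dlx1). Of the neural progenitor markers, Vim, which many other cells also express, was at 958 FPKM in telencephalon against 884 in whole body, and the other 5 summed to 527 and 124. The 4 neuronal markers summed to 756 FPKM in telencephalon against 173 in whole body. Markers of other cell types were at low levels in telencephalon. The 5 erythroid markers summed to 18.4 FPKM in telencephalon against 648 in whole body, and the 5 liver markers to 5.08 and 1920. The 4 muscle markers summed to 1.32 FPKM in telencephalon against 583 in whole body, the 4 connective tissue markers to 16.2 and 1500, and the 4 trunk Hox genes to 1.29 and 63.6. Every gene of these erythroid, liver, muscle, connective tissue and trunk markers was at least 2-fold lower in telencephalon, and Serpina1a was listed at 0 there. Their part in the replication gene values was not tested.

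The order of the members by level was similar in the 2 libraries. Mcm7 was highest in telencephalon at 109 FPKM, followed by Mcm2 at 82.5 and Mcm6 at 81.4, whereas in whole body Mcm6 was highest at 115 FPKM, ahead of Mcm7 at 104 and Mcm5 at 95.8. Over coding isoforms alone Mcm6 had 58.1 FPKM in telencephalon against 92 in whole body, which put it below Mcm7 (107 and 101) and Mcm5 (65.2 and 95.8) in both. Orc1 was lowest in telencephalon at 2.13 FPKM, below Gins3 at 3.34, and Gins3 was lowest in whole body at 4.46 FPKM, below Orc1 at 6.07. Spearman's rho between the libraries over the 37 members was 0.949, a description across genes that share both libraries.

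E2F motifs were searched in the members' promoters, since E2F factors are the class of regulator best known for these genes. RefSeq promoter windows on GRCm38.p6, from 250 bases before to 50 after the start, were at hand for 31 of the 37 members, and the first window listed was taken for each. The 6 not searched were Mcm4, Gmnn, Gins1, Rfc2, Prim2 and Pole. The letters TTTCCCGC or TTTGGCGC, on either strand, occurred in 9 of the 31 windows (29%), against 1.63% of the windows of all 27025 genes and 2.95% of those of 10631 measured genes. The 9 genes were Mcm3, Mcm5, Mcm6, Mcm7, Cdc6, Gins3, Rfc3, Pola1 and Pold1, with 11 matches in all. The letters CCAAT, also on either strand, occurred in 20 of the 31 windows (64.5%), against 37.9% of all windows. Median GC content was 57.7% in the members' windows and 61% in those of measured genes.

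The promoters of Mcm3, a subunit of the MCM ring that was lower in telencephalon, and Rfc3, a clamp loader subunit that was higher, show that the same letters occur in genes on both sides. Capitals mark the E2F letters, where GCGGGAAA is TTTCCCGC and GCGCCAAA is TTTGGCGC read on the other strand. The window of Mcm3 holds 2 matches after the start, and the match of Rfc3 begins at the start itself.
Mcm3 (chr1:20820263-20820562, minus strand): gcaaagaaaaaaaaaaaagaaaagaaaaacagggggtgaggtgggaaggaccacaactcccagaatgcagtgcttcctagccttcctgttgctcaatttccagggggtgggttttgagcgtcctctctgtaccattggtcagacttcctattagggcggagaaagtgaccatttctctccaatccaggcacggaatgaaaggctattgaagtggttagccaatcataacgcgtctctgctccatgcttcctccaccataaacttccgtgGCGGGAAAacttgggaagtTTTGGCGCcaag
Rfc3 (chr5:151651159-151651458, minus strand): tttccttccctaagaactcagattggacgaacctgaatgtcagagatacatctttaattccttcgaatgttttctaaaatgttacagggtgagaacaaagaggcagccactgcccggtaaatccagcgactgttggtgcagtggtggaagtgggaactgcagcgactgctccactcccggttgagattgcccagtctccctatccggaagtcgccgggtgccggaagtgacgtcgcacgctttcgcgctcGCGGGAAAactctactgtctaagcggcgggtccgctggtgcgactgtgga

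The matches in the other 7 promoters are shown with the bases around them, on the strand of the gene, to let the letters be compared. Mcm6 has 2 matches, both of TTTGGCGC.
Mcm5 (chr8:75109349-75109378, plus strand): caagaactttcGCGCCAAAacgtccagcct
Mcm6 (chr1:128359797-128359826, minus strand): tggcgtatgctTTTGGCGCgaaaagtgcgt
Mcm6 (chr1:128359734-128359763, minus strand): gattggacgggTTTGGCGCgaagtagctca
Mcm7 (chr5:138172030-138172059, minus strand): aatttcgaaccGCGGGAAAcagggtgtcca
Cdc6 (chr11:98908002-98908031, plus strand): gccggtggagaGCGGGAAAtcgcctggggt
Gins3 (chr8:95633507-95633536, plus strand): gcgagtgcggcGCGGGAAAgcgagtttgaa
Pola1 (chrX:93632275-93632304, minus strand): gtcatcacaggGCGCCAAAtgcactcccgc
Pold1 (chr7:44548766-44548787, minus strand): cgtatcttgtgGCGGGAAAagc

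The members with the motif had log2 ratios from -0.82 (Cdc6) to 0.46 (Rfc3) with a median of -0.39, and the 22 without it from -1.18 (Orc1) to 0.47 (Rfc4, but -0.15 over its coding isoforms) with a median of -0.34. Next below Rfc4 among those without it was E2f1 at 0.25. The ranges overlapped. A match is a run of letters and not a bound site, and its absence concerns this window alone.

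The licensing genes as a group had a median log2 ratio of -0.47, with 9 of 10 below 0, of which Mcm2 and Gmnn were above 0 after centring or in TPM. Orc1, an ATP-binding subunit of the origin recognition complex (chromosome 4, 108579423 to 108614833 on GRCm38), stood at 2.13 FPKM in telencephalon against 6.07 in whole body. Its level in telencephalon was 35% of that in whole body, and its fragment ratio was 0.321 (interval 0.26 to 0.394). Of its exonic bases, 10.8% are overlapped, by Gm12743 (0.209 FPKM in telencephalon, 0.181 in whole body). Its log2 ratio of -1.18 was the lowest of all members, and 17.5% of measured genes had a lower one. Orc6, another subunit, stood at 15.8 FPKM in telencephalon against 19.7 in whole body. Cdc6, the ATPase that loads the MCM ring together with Cdt1 (chromosome 11, 98907801 to 98923940), stood at 8.56 FPKM in telencephalon against 15.9 in whole body, or 53.9%, with a fragment ratio of 0.559 (interval 0.504 to 0.619). Gmnn, which encodes geminin, the inhibitor of Cdt1, was at 21.4 FPKM in telencephalon against 22.8 in whole body, of which a short transcript annotated for nonsense-mediated decay, on few fragments, made up 7.5 and 5.52. Over coding isoforms Gmnn was at 13.9 FPKM in telencephalon against 17.3 in whole body (log2 ratio -0.29), and its fragment ratio was 0.807 (interval 0.675 to 0.962). The ratio of Gmnn to Cdc6 was 2.5 in telencephalon against 1.44 in whole body, and 1.67 and 1.14 over coding isoforms.

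Of the 6 subunits of the MCM ring, 5 were below 0, with unequal ratios, Mcm2 again excepted after centring or in TPM. Mcm4 had the lowest ratio, with 37.5 FPKM in telencephalon against 62.9 in whole body, 59.6% of the whole-body level. Mcm5 stood at 65.2 FPKM in telencephalon against 95.8 in whole body, Mcm6 at 81.4 and 115, and Mcm3 at 47.4 and 64.7, so these 3 lay between 68% and 73.2% of the whole-body level. Mcm2 was closer, with 82.5 FPKM in telencephalon against 89.5 in whole body. Mcm7 was the one subunit above 0, with 109 FPKM in telencephalon against 104 in whole body (log2 ratio 0.08). The intervals of the fragment ratio for Mcm7 (0.993 to 1.06) and Mcm2 (0.886 to 0.949) did not overlap those of the other 4. The subunits enter the ring in equal number, yet their RNA levels spanned 2.92-fold in telencephalon and 1.83-fold in whole body, with Mcm4 lowest in both. Over the ring the summed FPKM in telencephalon was 79.6% of that in whole body. For Mcm6 a 588-base transcript with a retained intron had 28.6% of the FPKM in telencephalon and 20% in whole body. By estimated fragments this transcript had only 133 of 3586 in telencephalon and 180 of 7280 in whole body. Over coding isoforms the log2 ratio of Mcm6 was -0.65. For Mcm7 16.5% of 50-base stretches occur in the pseudogene Gm5487 and 12.6% of exonic bases are overlapped by other genes, mainly Ap4m1 on the other strand (23.3 FPKM in telencephalon, 23.9 in whole body), in libraries that do not mark strand.

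The genes that turn the loaded ring into a moving helicase split evenly. Cdc45, which binds the ring at the start of S phase, stood at 21.4 FPKM in telencephalon against 20.8 in whole body, and the GINS subunit gene Gins1 at 18.4 and 17.9. The intervals of both fragment ratios held 1. Mcm10, an activator of the assembled helicase, stood at 10.9 FPKM in telencephalon against 15 in whole body, a log2 ratio of -0.43. Gins3, another GINS subunit, stood at 3.34 FPKM in telencephalon against 4.46 in whole body, on 166 and 288 estimated fragments. Gins1 thus had 5.51 times the FPKM of Gins3 in telencephalon and 4.01 times in whole body, although both proteins belong to one complex.

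By gene FPKM, the clamp and its loader held both the lowest and the highest ratios outside licensing. Pcna, the sliding clamp that tethers polymerases to DNA, stood at 60.7 FPKM in telencephalon against 78.9 in whole body, or 76.9%, and 19.1% of its 50-base stretches occur in Pcna-ps2, a pseudogene listed at 0 in telencephalon against 0.146 FPKM in whole body. Rfc1, the large subunit of the loader that opens the clamp, stood at 12.7 FPKM in telencephalon against 22.2 in whole body, a log2 ratio of -0.76. Most of its isoforms have no known length or class, so it has no fragment ratio. Its only isoform with both known, a coding one, stood at 5.71 FPKM in telencephalon against 5.45 in whole body. The small subunits Rfc2 (47.6 FPKM in telencephalon, 51.6 in whole body) and Rfc5 (17.3 and 16.2) differed little. Exonic bases of Rfc2 are overlapped over 15.1%, by Lat2 (0.688 FPKM in telencephalon, 0.767 in whole body), and those of Rfc5 over 10.7%, by Wsb2 (81.6 FPKM in telencephalon, 47.4 in whole body). Rfc3 was higher, with 42.3 FPKM in telencephalon against 30.4 in whole body (chromosome 5, 151642756 to 151651242). Its fragment ratio was 1.36 (interval 1.24 to 1.49), and 79.3% of measured genes had a lower log2 ratio. Relative to Rfc1, Rfc3 stood at 3.34 in telencephalon against 1.37 in whole body.

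Rfc4, another small subunit, had the highest log2 ratio of all members at 0.47, with 30.2 FPKM in telencephalon against 21.5 in whole body (chromosome 16, 23113943 to 23127737). This value includes a short isoform that differed between the libraries. A 449-base transcript annotated with a retained intron stood at 10.5 FPKM in telencephalon against 0.285 in whole body, on about 27 fragments and 1 fragment, and 25.2% of its bases lie in exons of the neighbouring gene Eif4a2 (120 FPKM in telencephalon, 135 in whole body). The main coding isoform of 1228 bases stood at 18.9 FPKM in telencephalon against 20.7 in whole body. Over coding isoforms the log2 ratio of Rfc4 was -0.15, and the ratio of its estimated fragments scaled by depth was 0.947 (interval 0.832 to 1.08), so the direction of Rfc4 depends on how its isoforms are added.

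**Figure D2:**
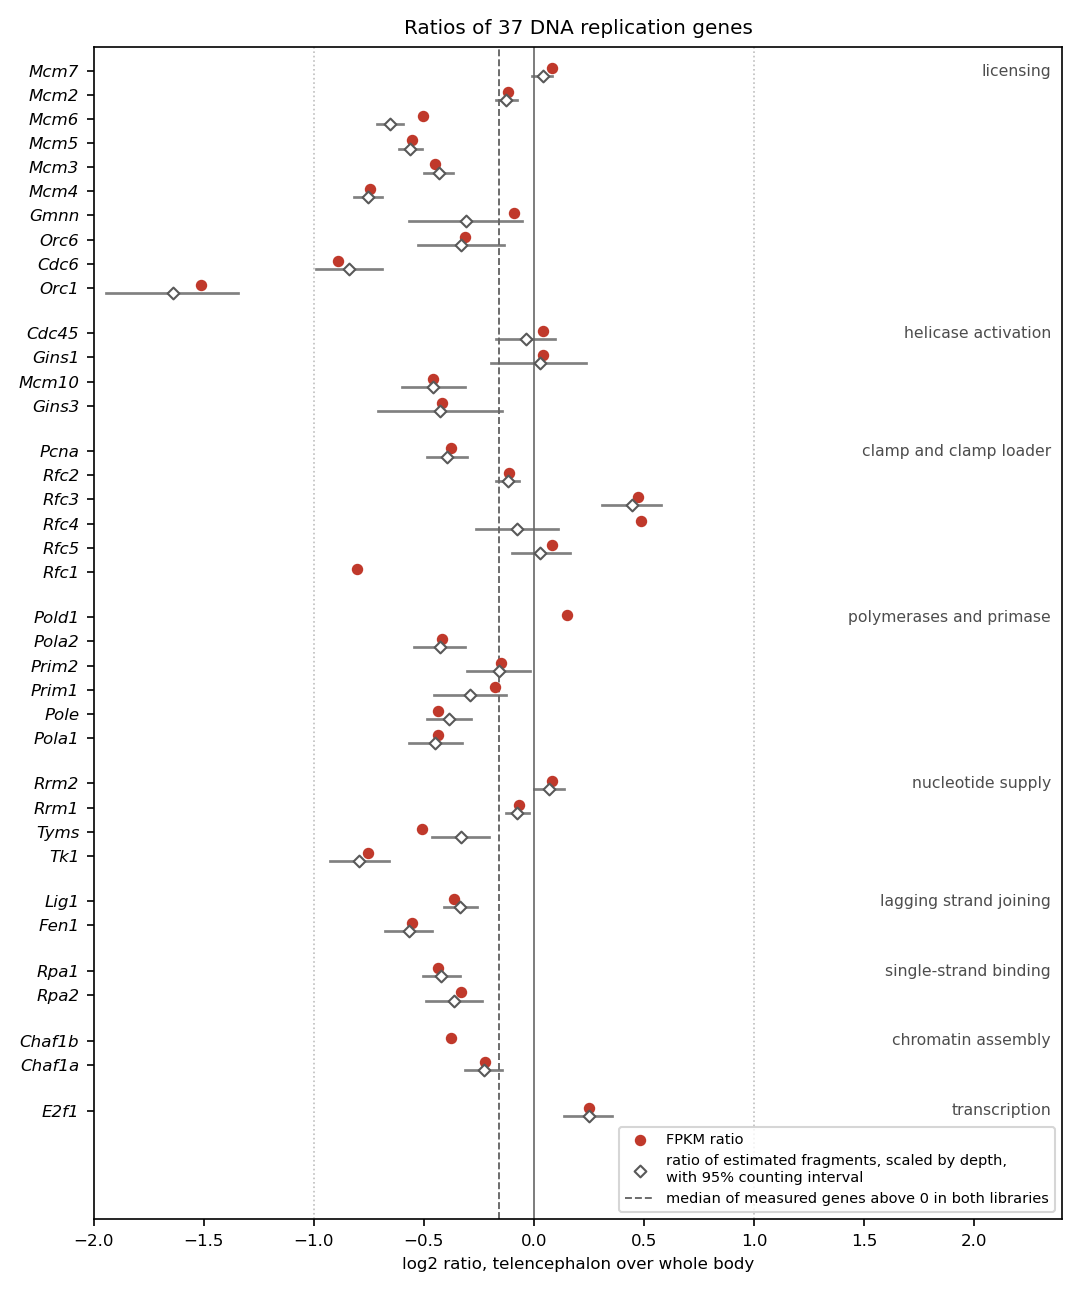
Log2 of the plain FPKM ratio (no pseudocount), telencephalon over whole body, for each member (filled circles) and log2 ratio of estimated fragments scaled by depth (diamonds, bars for the 95% counting interval), by role. Dotted lines mark 2-fold and the dashed line the median of measured genes above 0 in both libraries (-0.16). Of the 37 circles, 23 lie left of the dashed line, and the diamonds of Rfc4 and Cdc45 lie on the other side of 0 from their circles. Rfc1, Pold1 and Chaf1b have no diamond, since some of their isoforms have no known length.

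Polymerase and primase genes lay close together, with a range of log2 ratios from -0.40 to 0.15. The subunits of the polymerase alpha-primase complex, which makes the RNA-DNA primers, were all below 0, although Prim2 was above 0 after centring or in TPM. Pola1, the catalytic subunit, stood at 7.72 FPKM in telencephalon against 10.4 in whole body, and Pola2, the accessory subunit, at 19.9 and 26.5. The primase genes Prim1 (17.2 FPKM in telencephalon, 19.4 in whole body) and Prim2 (17.7 and 19.6) had nearly equal levels in each library, with a ratio of Prim1 to Prim2 of 0.973 in telencephalon against 0.992 in whole body. The catalytic subunits of the main polymerases had ratios on opposite sides of 0. Pole, the leading-strand polymerase epsilon, stood at 9.86 FPKM in telencephalon against 13.3 in whole body, with a fragment ratio of 0.766 (interval 0.715 to 0.819). Pold1, the lagging-strand polymerase delta, stood at 48.8 FPKM in telencephalon against 43.8 in whole body, a log2 ratio of 0.15. Pold1 had 4.95 times the FPKM of Pole in telencephalon and 3.28 times in whole body.

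Nucleotide supply separated the reductase from the thymidylate genes by gene FPKM, but over its coding isoform Tyms lay nearer the reductase. The subunits of ribonucleotide reductase, which makes deoxynucleotides from ribonucleotides, were at nearly the same level in both libraries. Rrm1 stood at 61.1 FPKM in telencephalon against 64.1 in whole body, and Rrm2, the subunit that follows S phase, at 70.4 and 66.2. Tk1, the S-phase kinase that salvages thymidine, stood at 28.2 FPKM in telencephalon against 47.6 in whole body, 59.2% of the whole-body level, with a fragment ratio of 0.577 (interval 0.526 to 0.633). Tyms, which makes thymidylate anew from deoxyuridylate, stood at 46.1 FPKM in telencephalon against 65.5 in whole body, or 70.3%. The Tyms fragment ratio was 0.794 (interval 0.726 to 0.867), between those of Tk1 and of Rrm1 (0.949, interval 0.916 to 0.985). Only 13.8% of the Tyms FPKM in telencephalon and 10.9% in whole body came from the coding isoform. By estimated fragments that isoform had 411 of 812 in telencephalon and 597 of 1319 in whole body. Over that isoform the levels were 6.37 FPKM in telencephalon against 7.15 in whole body, a log2 ratio of -0.14.

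Genes of strand joining, single-strand binding and chromatin assembly were all below 0. Fen1, the nuclease that trims flaps of Okazaki fragments, stood at 25.5 FPKM in telencephalon against 37.4 in whole body, and Lig1, the ligase that seals them, at 39.2 and 50.5. The exons of Fen1 are overlapped over 84.2% of their bases, mainly by the antisense gene Gm10143, which was listed at 0.0307 FPKM in telencephalon against 0.249 in whole body. Rpa1 and Rpa2, subunits of the protein that coats single-stranded DNA, stood at 43.3 and 25.3 FPKM in telencephalon, against 58.6 and 31.8 FPKM in whole body. Chaf1a and Chaf1b, subunits of the chaperone that lays histones on new DNA, stood at 16 and 18.6 FPKM in telencephalon, against 18.7 and 24.1 FPKM in whole body. The exonic bases of Chaf1a are overlapped over 52.5%, by Ubxn6 on the other strand, which was higher in telencephalon (39.1 FPKM against 27.4 in whole body). The 6 log2 ratios of these genes ran from -0.54 (Fen1) to -0.21 (Chaf1a).

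E2f1, a transcription factor that activates S-phase genes, was above 0, with 24.1 FPKM in telencephalon against 20.2 in whole body (chromosome 2, 154559407 to 154569892). Its fragment ratio was 1.19 (interval 1.1 to 1.28). E2f2, another activator, stood at 5.71 FPKM in telencephalon against 21.2 in whole body (log2 ratio -1.72), and E2f4, which acts mainly as a repressor, at 42.1 and 88.2 (-1.05). E2f3, the third activator, stood at 11.5 FPKM in telencephalon against 23.5 in whole body (-0.97). Its estimated fragments were 1246 in telencephalon and 1688 in whole body, in libraries whose depths differ 1.29-fold. By these numbers the E2f3 difference was smaller than by FPKM, but they leave out any isoform without a known length. Whether E2f3 has such isoforms is not shown here. E2f7, an atypical repressor, stood at 9.48 FPKM in telencephalon against 8.75 in whole body, and E2f5 at 11.4 and 8.74. The 12 E2F, DP and retinoblastoma family genes besides E2f1 had a median of -0.18, near the -0.16 of all measured genes, and 10 were below 0, but in TPM and after centring 6 were below 0 and the median was -0.02. E2f2 and E2f4 were at least 2-fold lower (2 of 12, against 21.2% of measured genes), and none was at least 2-fold higher (9.39%). Upper-quartile, TPM, common-sum and centred scaling and a pseudocount of 5 FPKM each left 1 at least 2-fold lower. With a pseudocount of 0.1 FPKM 3 were at least 2-fold lower, against 25.4% of measured genes.

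Isoform shares of most members differed little between the libraries. Of 29 members with several isoforms and 5 FPKM or more in both libraries, 6 had an isoform whose share differed by at least 10 percentage points (20.7%, against 42% of 6326 such genes), namely Gmnn, Cdc45, Rfc1, Rfc4, Lig1 and E2f1. For Cdc45 a 1747-base coding isoform had 29.2% of the FPKM in telencephalon and 18% in whole body. The coding isoforms of E2f1, of 2755 and 2732 bases, had 48.4% and 51.6% in telencephalon, against 35.2% and 64.8% in whole body. For Gmnn a 387-base transcript annotated for nonsense-mediated decay had 35% in telencephalon and 24.2% in whole body, on about 9 and 10 fragments. For Lig1 most FPKM fell on isoforms annotated as non-coding, with 20.3% in coding isoforms in telencephalon and 18.7% in whole body. The leading isoform differed for Rfc1 and Fen1 (6.9% of the 29, against 14.5% of the 6326 genes). The coding isoforms ENSMUST00000116542 and ENSMUST00000025651 of Fen1 were close, at 43.5% and 39.4% in telencephalon against 33.9% and 36.3% in whole body. For Rfc1, transcript ENSMUST00000031092 had 35.6% in telencephalon and 58.5% in whole body, while ENSMUST00000172732 had 45% and 24.6%.

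**Figure D3:**
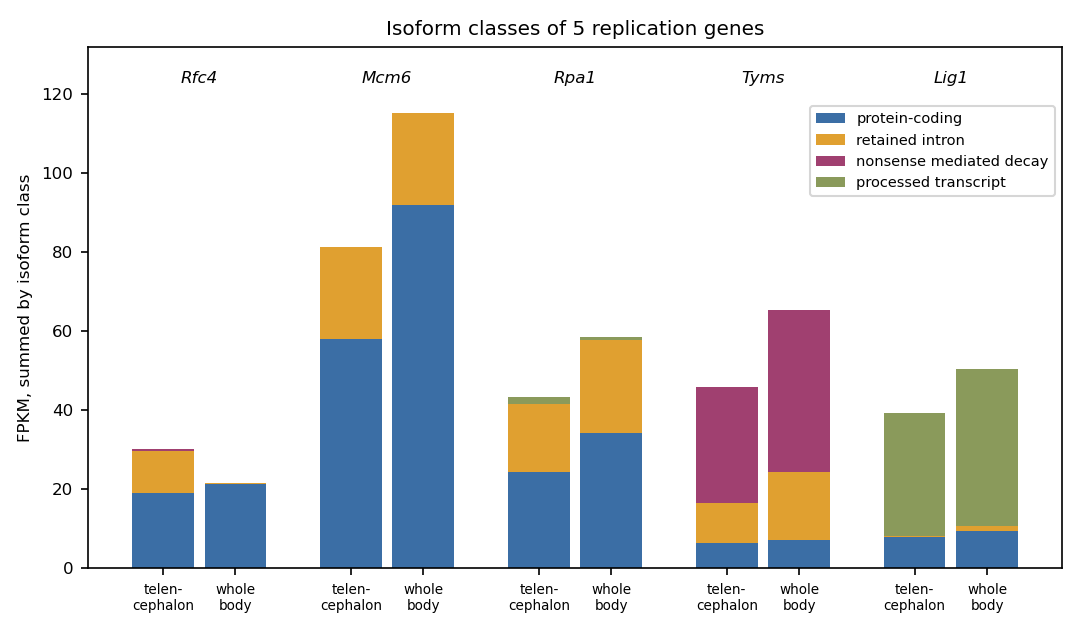
FPKM summed by annotated isoform class (bars from 0) for 5 members, telencephalon left and whole body right in each pair. The retained-intron class of Rfc4 stands at 10.5 FPKM in telencephalon against 0.285 in whole body. In Rpa1 this class holds 40.1% of the FPKM in both libraries, on 150 of 1730 estimated fragments in telencephalon and 272 of 2986 in whole body. In Tyms and Lig1 the coding class is the smaller part of the FPKM.

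The other genes of the pathway, 56 factors listed beside the members, had a median log2 ratio of -0.17. Of these, 35 were below 0, 3 were at least 2-fold lower and 1 was at least 2-fold higher, against the 58.2%, 21.2% and 9.39% of measured genes given above. The 3 were Asf1b, a histone chaperone of dividing cells (11.3 FPKM in telencephalon, 26.5 in whole body), Orc2, a subunit of the origin recognition complex (7.05 and 16.2), and Dctd, which deaminates deoxycytidylate on the way to thymidylate (9.36 and 21). The 1 higher was Top2b, the topoisomerase II form that postmitotic cells such as neurons also express (74.7 FPKM in telencephalon, 36.4 in whole body). The remaining origin recognition subunits spread from Orc5 at 7.73 FPKM in telencephalon against 14.6 in whole body to Orc4 at 16.2 and 13.3, log2 ratios of -0.84 and 0.26, on either side of Orc3 at -0.46. Orc4 differed less by estimated fragments, with 375 in telencephalon and 469 in whole body at depths that differ 1.29-fold. These numbers too leave out any isoform without a known length, and whether Orc4 has such isoforms is not shown here. By the fragment ratio, 2 genes of this list were at least 2-fold lower and 1 higher, against 25.8% and 11.3% of measured genes. Among nucleotide enzymes the folate enzymes Mthfd1 (17.1 FPKM in telencephalon, 33.8 in whole body) and Shmt1 (17.2 and 30.8), which feed thymidylate synthesis, lay near Tk1, while the salvage kinases Dck (24.6 and 15.7) and Tk2 (14.8 and 9.24), of which Tk2 is mitochondrial, were higher.

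**Figure D4:**
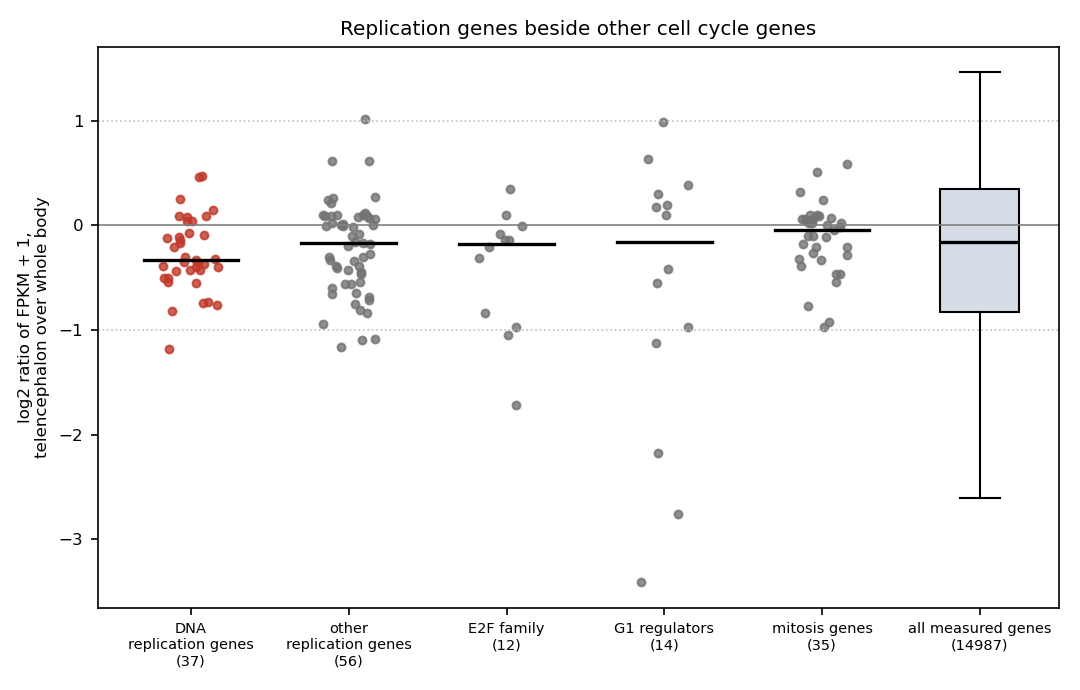
Each measured gene of 5 lists by its log2 ratio between telencephalon and whole body, after adding 1 FPKM (points, with a bar at the list's median), beside all measured genes (box from the first to the third quartile, whiskers from the 5th to the 95th percentile). The replication genes have a median of -0.33, the mitosis genes -0.04, and the G1 regulators spread from -3.41 to 0.99.

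Of the lists compared, the replication genes had the lowest median. The 35 mitosis genes had a median of -0.04, with none past 2-fold and a range from -0.97 (Mki67, a proliferation marker) to 0.59 (Prc1, a bundler of spindle microtubules). Birc5, a subunit of the chromosomal passenger complex, was at -0.92 and Foxm1, a factor that activates mitotic genes, at 0.51. In TPM or after centring this median was 0.12. The 14 G1 regulators had a median of -0.16, equal to that of all measured genes. By the log2 ratio with 1 FPKM added, 4 of 14 were at least 2-fold lower, against 21.2% of measured genes, and 0 at least 2-fold higher, against 9.39%. Cdkn1b, at a log2 ratio of 0.99, lay just under the limit, and 1 gene was past it with a pseudocount of 0.1 FPKM and under upper-quartile, TPM, common-sum and centred scaling. The 4 lower were the cyclin genes Ccnd3 (34.2 FPKM in telencephalon, 238 in whole body) and Ccne1 (8.5 and 42.1) and the inhibitor genes Cdkn1c (42.5 and 462) and Cdkn1a (7.22 and 16.9). Cdk2, the partner kinase of cyclin E, stood at 17.6 FPKM in telencephalon against 35.6 in whole body (log2 ratio -0.97). The highest ratios of the list were those of the inhibitor Cdkn1b (27.3 FPKM in telencephalon, 13.2 in whole body) and the cyclin Ccnd2 (141 and 90.7). With a pseudocount of 0.1 FPKM and by the fragment ratio, 5 G1 regulators were at least 2-fold lower, against 25.4% and 25.8% of measured genes. With a pseudocount of 5 FPKM and after centring, 3 were, against 9.94% and 17.9%. The difference between the lists was not tested, since each rests on the same pair of libraries.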

How the data were processed

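Libraries were made with the TruSeq RNA v2 kit, which does not mark strand, from column-extracted total RNA and sequenced on an Illumina HiSeq, per the labels' protocols. The authors deposited FPKM per gene and per isoform, made with TopHat, Cufflinks and Cuffdiff on GRCm38, per the submitters' processing notes. No source used here gives their versions or the annotation release. Values in FPKM are not counts, so no count model was run. Gene values equalled isoform sums within 0.1% in 99.9% of cases. Transcript lengths, types and coordinates come from GENCODE M21, of the same build. Some isoforms of Rfc1, Pold1 and Chaf1b had no match there, so they have no fragment ratio.

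Fragments per library were fitted to the FPKM steps of genes with 1 isoform, with 337 bases subtracted from lengths in telencephalon against 323 in whole body. Under 20 fragments, 89.8% and 91.1% of values were whole within 0.1, although genes of the fit are included. The steps were tested on simulated data. Python 3.11.15 with SciPy 1.17.1 was used. Members, lists and limits were chosen with earlier results of these data known. All members are named. Of the other lists, genes past 2-fold and the 2 lowest and 2 highest are named. Orc3, Orc4, Orc5, Mthfd1, Shmt1, Dck, Tk2, E2f3 and Cdk2 were added after their values were seen. Alternatives covered the pseudocount, floor, scaling and isoform class. One marker gene of the telencephalon list is not reported here.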

Additional observations from a re-analysis of the deposited data

How the results depend on the processing

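With 1 library for each tissue, no library could be left out, and no paired analysis was possible because the result comes from no test. Scaling to TPM moved the median of all measured genes by 0.14 and centring moved it by 0.16. The median log2 ratio of the replication genes was then -0.20 in TPM and -0.18 after centring, against -0.33 as deposited, and it stayed between -0.36 and -0.18 under the alternatives run. The other replication genes had -0.03 in TPM and -0.02 after centring, the mitosis genes 0.12 under both and so turned positive, and the G1 regulators -0.00 under both. A pseudocount of 5 FPKM left 0 members at least 2-fold lower, since Orc1 had a log2 ratio of -0.63, and 0 of the other replication genes in either direction. In TPM and after centring, 1 of the other replication genes was at least 2-fold lower. With the motif TTTNNCGC the share of members' promoters was 35.5%, against 5.27% of all promoters.

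Added after seeing the data, the fragment ratio scaled by depth gave the members a median of -0.33. Without 11 members that share 3% or more of their stretches or 10% or more of their exonic bases with other genes, the median was -0.34 and 0 were at least 2-fold lower, since Orc1 was among those left out (10.8% overlapped by Gm12743). Of single members, 23 were below 0 and 7 above 0 under each alternative run, and Mcm2, Gmnn, Cdc45, Rfc2, Rfc4, Prim2 and Rrm1 changed sign. Signs held under every alternative were not counted over all measured genes, of which 58.2% were below 0 in the main setting. The coding-isoform and fragment alternatives were not run for Rfc1, Pold1 and Chaf1b as single members. Depth limits Orc1 and Gins3 most, with 116 and 166 fragments in telencephalon.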
